A study of Arabidopsis thaliana with 24 samples.

Results

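The single-repeat MYB genes CAPRICE (CPC), TRIPTYCHON (TRY) and ENHANCER OF TRY AND CPC 1, 2 and 3 (ETC1, ETC2 and ETC3) were followed across mutant lines of the Arabidopsis thaliana root epidermis. They were chosen by the locus codes of their array entries (AT2G46410_at, AT5G53200_at, AT1G01380_at, AT2G30420_at and AT4G01060_at). The choice used no rule on their levels, but earlier results of these data were known when it was made. Of the 5, 4 had an entry in the table (CPC, TRY, ETC1 and ETC2, out of 21440 measured genes), and ETC3, listed as CPL3 in RefSeq, was not measured. There were 8 lines with 3 arrays each, 24 arrays in all. They carried wer-1, myb23-1, egl3-1, gl3-1, cpc-1, try-82 or ttg2-1 alone, or, by the label, cpc-1 together with ttg2-1. Every line also carried WER::GFP, a green fluorescent reporter under the promoter of WEREWOLF that is active in the developing epidermis and in the lateral root cap. Root tips of about 2 mm were taken from seedlings aged 5 days (23 °C, 1% sucrose), and RNA came from the fluorescent protoplasts after sorting. Both cell fates of the epidermis and root cap cells were therefore pooled in each array, so fewer cells of a type and less RNA per cell cannot be told apart. A wild type was not analysed here, and every comparison below is between mutant lines. All levels are log2 values of robust multi-array averaging (RMA), so a difference of 1 is a doubling.

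Single-repeat MYB proteins keep the MYB repeat that binds bHLH factors but lack an activation domain. In the root epidermis, the R2R3 MYB factors WEREWOLF (WER) and MYB23 form a complex with the bHLH factors GL3 and EGL3 and the WD40 protein TTG1 in the non-hair cells, which turns on GL2 and the non-hair fate. The same complex turns on CPC, whose protein moves into the neighbouring cells, competes there for the bHLH partners and lets a hair form. TRY and the ETC proteins share this inhibitor role in root hairs, leaf trichomes or both.

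Of the defining epidermal markers, WER stood at 10.22 to 11.96 over 24 arrays and the mean of 8 root hair markers at 8.20 to 11.54, above every array median. The non-hair gene GL2 ran from 5.90 to 10.26, with its lowest value in wer below the array medians. The mean of 12 lateral root cap markers ran from 9.25 to 10.73, that of 12 ground tissue markers from 3.71 to 5.49 and that of 13 stele markers from 4.38 to 5.35. No value is 0 on this scale, and no background level is given. Of the mutated genes outside the family, TTG2 stood at 4.35 ± 0.44 (SD, n = 3) in ttg2 but at 8.25 ± 0.54 in the arrays labelled cpc ttg2, above every other line. These arrays go against the ttg2 part of their label, are called "labelled cpc ttg2" below, and the calls of a line, and of the lines labelled with cpc-1, that rest on them are also given without them. Their array medians of 6.47 to 6.52 lay below those of the other 21 arrays, 6.58 to 6.91. WER in wer, MYB23 in myb23 and EGL3 in egl3 differed from the other 7 lines by -0.16, -0.54 and 0.70 and did not pass (limma, adjusted p from 0.299 to 0.765), and GL3 was not measured. Nothing in the labels says that the 3 arrays of a line came from separate plantings beyond the words biological replicate, and their number limits the precision.

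CPC, TRY and ETC1 differed among the 8 lines, and ETC2 did not pass. In limma's moderated F test, 3 of the 4 genes had a p adjusted over all genes by the Benjamini-Hochberg (BH) method of under 0.05, the threshold used throughout, where 27% of all genes did. The adjusted p was 0.000114 for ETC1, 0.00178 for TRY, 0.0155 for CPC and 0.582 for ETC2. ETC1 and TRY covered the widest ranges, with line means 3.43 and 3.61 apart, against 1.07 for CPC and 1.19 for ETC2. The spread between arrays of the same line was 0.58 for ETC1, 0.63 for TRY, 0.38 for CPC and 0.78 for ETC2 (SD pooled over lines), and its median over all genes was 0.38. Without the arrays labelled cpc ttg2, CPC no longer passed (adjusted p = 0.0937), while TRY (0.00516) and ETC1 (0.0143) did. The F test then called 872 of 21440 genes, against 5786 with these arrays.

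**Figure D1:**
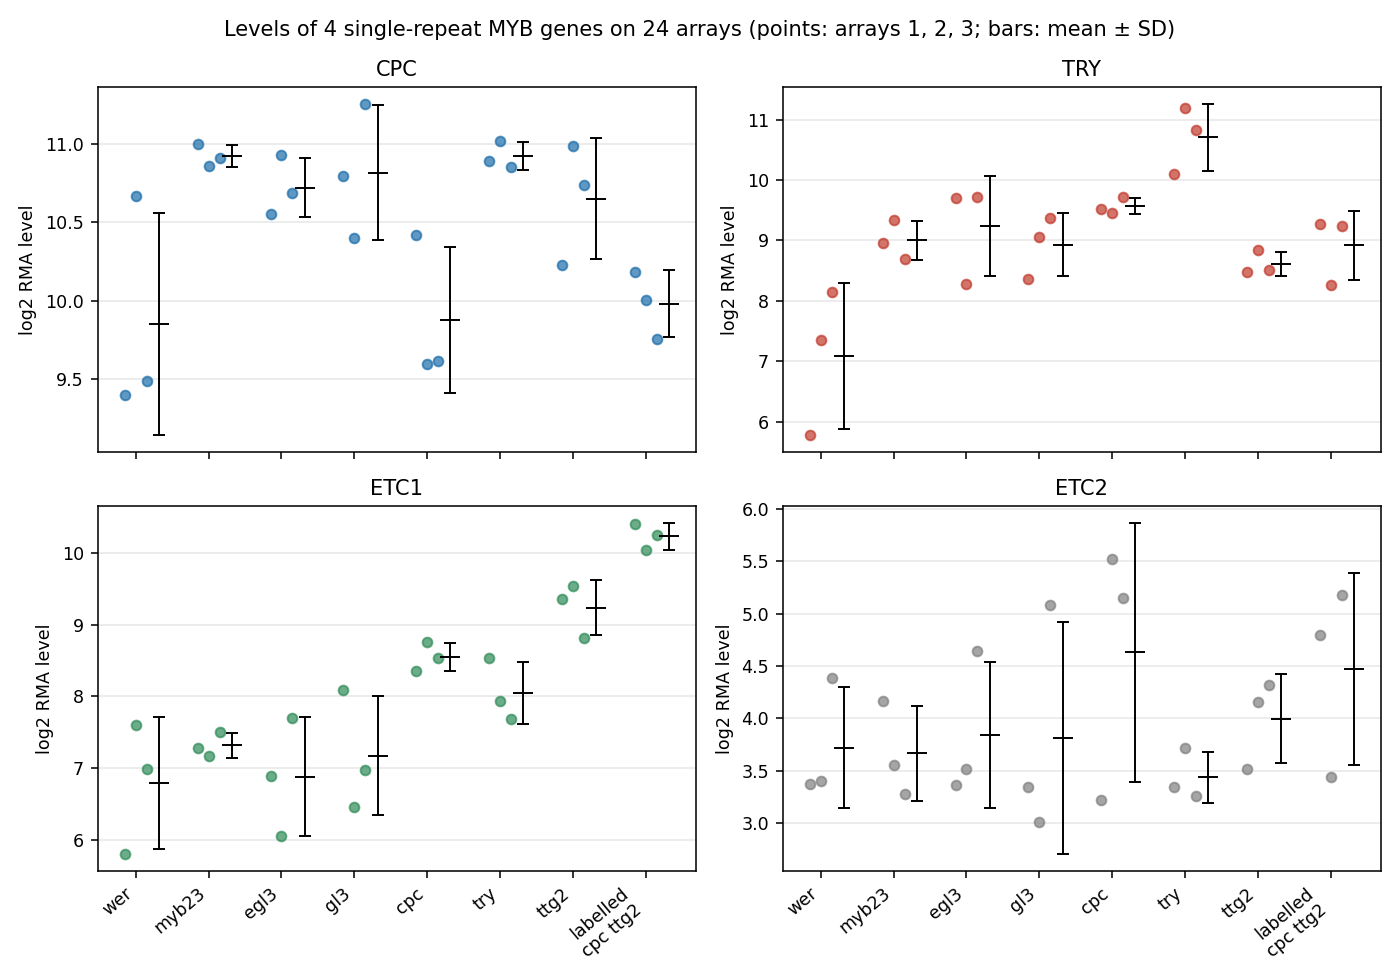
Log2 RMA levels (y axes, 1 panel per gene) of CPC, TRY, ETC1 and ETC2 in 8 mutant lines (x axis). Points are the 3 arrays of a line, and the bar beside them is mean ± SD. TRY is lowest in wer (mean 7.09) and highest in try (10.71), ETC1 is highest in the arrays labelled cpc ttg2 (10.23), and the lines overlap for ETC2.

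Each line was then set against the mean of the other 7 lines. Of these 32 tests on the family, 5 passed (15.6%), against 5.83% of the tests on all genes. The 5 were TRY and ETC1 in wer, ETC1 in egl3, TRY in try and ETC1 in the arrays labelled cpc ttg2. The other 7 lines are shared between these comparisons, so they are not independent of each other.

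**Figure D2:**
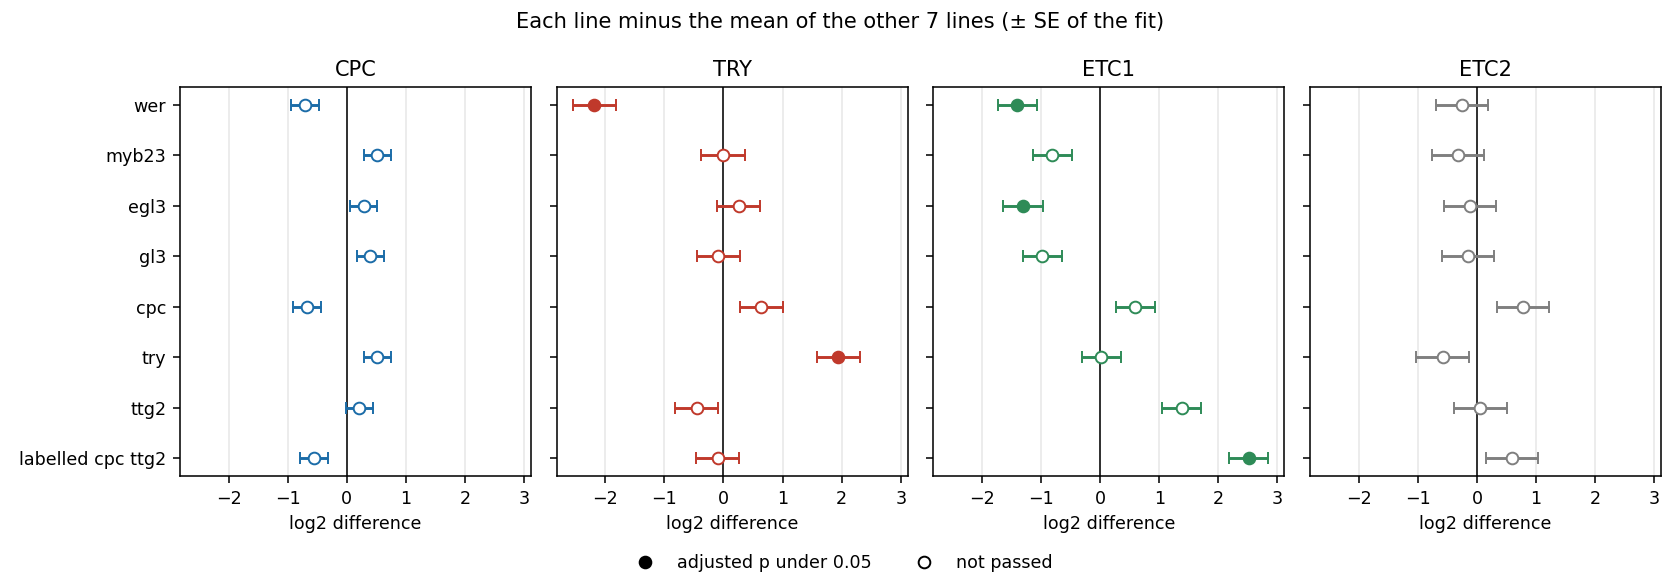
Difference in log2 RMA level (x axes) between each line (y axis) and the mean of the other 7 lines, with the SE of the fit, for CPC, TRY, ETC1 and ETC2. Filled points passed at a BH-adjusted p under 0.05. The filled points are TRY at -2.19 in wer and 1.94 in try, and ETC1 at -1.41 in wer, -1.31 in egl3 and 2.51 in the arrays labelled cpc ttg2.

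CPC (AT2G46410, chromosome 2), the mobile inhibitor, was lowest in wer and in the 2 lines labelled with cpc-1. Its levels were 10.42, 9.60 and 9.62 in cpc and 10.18, 10.01 and 9.76 in the arrays labelled cpc ttg2. In wer they were 9.40, 10.66 and 9.49, so array 2 of wer lay with the higher lines and arrays 1 and 3 lay below every array outside wer. The remaining lines held CPC at 10.23, 10.98 and 10.74 in ttg2, 10.55, 10.93 and 10.69 in egl3, and 10.79, 10.40 and 11.25 in gl3. The tightest groups were myb23, with 11.00, 10.86 and 10.91, and try, with 10.89, 11.02 and 10.85. None of the 3 low lines was clear of all others, since each overlapped arrays of another line.

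In both lines labelled with cpc-1 together, CPC averaged 9.93, against 10.65 in the 6 lines without the label, and fell by 0.72 ± 0.18 (SE; limma, adjusted p = 0.0042). Of all genes, 20.7% were lower and 15% higher in this comparison, so a call is common in it. In the same comparison 4 of 8 root hair markers were lower (array means of 8.20 to 10.10 in the lines labelled with cpc-1, against 8.91 to 11.54 in the other 6). Of the lateral root cap markers 4 of 12 were higher and 1 lower (10.20 to 10.73, against 9.25 to 10.68), and 5 of 12 ground tissue markers (4.10 to 5.49, against 3.71 to 5.06) and 4 of 13 stele markers (4.54 to 5.35, against 4.38 to 4.86) were higher. Their part in the CPC and ETC1 differences of this comparison was not tested. In cpc alone the difference from the 6 lines was -0.77 ± 0.24 with the arrays labelled cpc ttg2 left out, and it did not pass (adjusted p = 0.12). Against the other 7 lines, CPC differed by -0.67 in cpc, -0.55 in the arrays labelled cpc ttg2 and -0.71 in wer, which gave 0.215, 0.0636 and 0.105 as adjusted p. The wer value hangs on array 2, since without it CPC was lower in wer (-1.11, adjusted p = 0.01), and without the arrays labelled cpc ttg2 it was -0.80 (0.1). The level in cpc could not be told apart from that in wer, a line with no cpc label (cpc minus wer, 0.03 ± 0.30 (SE), adjusted p = 0.97).

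TRY (AT5G53200, chromosome 5), the inhibitor best known from leaf trichomes, had the lowest levels in wer and the highest in try. Its levels in wer were 5.77, 7.35 and 8.15. All 3 lay below the other 21 arrays, of which the lowest was at 8.27, but they also spanned 2.38 among themselves. In wer TRY averaged 7.09 ± 1.21 (SD, n = 3), against 9.28 over the other 7 lines, and fell by 2.19 ± 0.36 (SE, 4.56-fold; limma, adjusted p = 0.00471). Among all genes, 1.46% were lower in wer and 0.215% had all 3 wer arrays below the rest. Array 1 of wer carries much of the size: without it the difference was -1.53 and missed the threshold (adjusted p = 0.0824). Over all genes, calls in wer in either direction also fell from 560 to 34 without this array. Without the arrays labelled cpc ttg2 the TRY difference was -2.25 (adjusted p = 0.00519).

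In the try arrays TRY stood at 10.10, 11.19 and 10.83, above each of the other 21 arrays, of which the highest was at 9.72. The mean of 10.71 ± 0.55 (SD, n = 3) in try was 1.94 ± 0.36 above the 8.77 of the other 7 lines (SE, 3.84-fold; limma, adjusted p = 0.00375). A higher level in try was called for 1.29% of all genes, and 0.364% had all 3 try arrays above the rest. The mutated gene was therefore higher, not lower, in the line labelled with its mutation. Whether the part of the transcript that the probes read is intact in try-82 was not tested. Without array 2 of try the difference was 1.70 and did not pass (adjusted p = 0.0747), and without the arrays labelled cpc ttg2 it was 1.97 (adjusted p = 0.00608).

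In the remaining lines TRY lay between the levels of wer and try, with line means from 8.61 ± 0.20 in ttg2 to 9.57 ± 0.14 in cpc (SD, n = 3). The SD within these lines reached 0.83, in egl3. All 3 cpc arrays lay above those of gl3, myb23, ttg2 and the arrays labelled cpc ttg2, but none of these pairs passed (limma, adjusted p from 0.436 to 0.776). The cpc arrays held 9.52, 9.46 and 9.72, the egl3 arrays 9.70, 8.28 and 9.72, and the gl3 arrays 8.37, 9.06 and 9.37. The myb23 arrays held 8.96, 9.35 and 8.70, the ttg2 arrays 8.48, 8.84 and 8.51, and the arrays labelled cpc ttg2 9.27, 8.27 and 9.23. None of these 6 lines differed from the other 7 (differences from -0.45 to 0.64, adjusted p from 0.511 to 0.995).

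ETC1 (AT1G01380, chromosome 1), a close relative that acts redundantly with TRY and CPC, had its levels spread over all the lines, with the larger SD of line means (1.23, against 1.01 for TRY). The arrays labelled cpc ttg2 held 10.41, 10.03 and 10.25, and the ttg2 arrays 9.35, 9.54 and 8.81. The cpc arrays followed with 8.36, 8.76 and 8.53 and the try arrays with 8.53, 7.93 and 7.68. All 12 of these arrays lay at or above 7.68, as did array 1 of gl3 (8.08) and array 3 of egl3 (7.71). The ttg2 arrays lay above all arrays of cpc and try, but neither difference passed (limma, adjusted p = 0.931 and 0.235). The lines with a mutation in an R2R3 MYB or a bHLH factor had the 4 lowest means. The myb23 arrays held 7.28, 7.17 and 7.51, the gl3 arrays 8.08, 6.47 and 6.98, the egl3 arrays 6.90, 6.05 and 7.71, and the wer arrays 5.80, 7.61 and 6.99. Within gl3, egl3 and wer the arrays differed by 1.62 to 1.80, so these 3 lines had no order among themselves.

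In the arrays labelled cpc ttg2 ETC1 averaged 10.23 ± 0.19 (SD, n = 3), against 7.72 over the other 7 lines, and rose by 2.51 ± 0.33 (SE, 5.71-fold; limma, adjusted p = 2.67e-05). A higher level was called for 16.3% of all genes in these arrays, and 3.85% had all 3 above the other 21. Of all genes called there in either direction 43.9% were higher, so a lower call was common as well. In ttg2 ETC1 was 1.38 ± 0.33 higher than the other 7 lines, and 1.77 ± 0.35 higher when the arrays labelled cpc ttg2 were left out, and neither passed (adjusted p = 0.152 and 0.0616). The arrays labelled cpc ttg2 also held 9 of 12 ground tissue markers and 5 of 13 stele markers higher, with array means of 5.23 to 5.49 for ground tissue, against 3.71 to 5.06 in the other 7 lines, and of 5.01 to 5.35 for stele, against 4.38 to 4.94. Of the lateral root cap markers 3 were higher and 1 lower (10.20 to 10.45, against 9.25 to 10.73), and 3 of 8 root hair markers were lower (8.20 to 10.06, against 8.77 to 11.54). Their 25S rRNA signal was 10.86 to 11.24, against 8.04 to 11.35, and the 3' minus 5' difference of actin was 5.35 to 6.14, against 4.21 to 6.09. The part of these in the ETC1 level was not tested. In both lines labelled with cpc-1 together, ETC1 was higher than in the other 6 (1.81 ± 0.25, adjusted p = 7.74e-05), where 15% of all genes were higher, and in cpc alone, with the arrays labelled cpc ttg2 left out, the difference of 0.97 did not pass (0.177).

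In wer ETC1 averaged 6.80 ± 0.92 (SD, n = 3), against 8.21 over the other 7 lines, and fell by 1.41 ± 0.33 (SE; limma, adjusted p = 0.0286). With TRY it made 2 of 4 genes lower in wer, against 1.46% of all genes. In egl3 it averaged 6.89 ± 0.83, against 8.19, and fell by 1.31 ± 0.33 (adjusted p = 0.0424), where 1.16% of all genes were called lower. Both calls rest partly on the arrays labelled cpc ttg2 in the comparison, since without them the differences were -1.07 in wer (adjusted p = 0.135) and -0.97 in egl3 (adjusted p = 0.236). The call in wer also ended without array 1 (-0.91, adjusted p = 0.355) or array 3 of wer (-1.50, 0.113). Over all genes, calls in wer in either direction fell from 560 to 34 without array 1 and to 78 without array 3. The ETC1 call in egl3 ended in 10 of the 24 fits that left out 1 array, with the largest adjusted p of 0.243 without array 2 of egl3. In gl3 and myb23 ETC1 was at -0.98 and -0.81 without passing (adjusted p = 0.416 and 0.7), and at -0.63 and -0.46 without the arrays labelled cpc ttg2 (0.872 and 0.969).

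A few markers of other cell types were also called in wer. Of the 12 lateral root cap markers 3 were lower in wer (array means of 9.39 to 9.88, against 9.25 to 10.73 in the other 7 lines), and of the stele markers 1 of 13 was lower (4.39 to 4.50, against 4.38 to 5.35), where 1.46% of all genes were lower. None of 12 ground tissue markers was called (4.33 to 4.61, against 3.71 to 5.49). The root hair markers, none of 8 called at an adjusted p under 0.05, stood at 10.78 to 11.54 in wer, against 8.20 to 10.79. In egl3, 1 of 8 root hair markers was lower (9.10 to 10.05, against 8.20 to 11.54), where 1.16% of all genes were lower. In try 1 of 13 stele markers was higher (4.46 to 4.65, against 4.38 to 5.35), where 1.29% of all genes were higher. Their part in the TRY and ETC1 levels was not tested.

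ETC2 (AT2G30420, chromosome 2), whose neighbours in the RefSeq gene order include the related TCL2 and TCL1, showed no difference between lines that passed. Its 24 levels ran from 3.01 to 5.52 with a median of 3.54. The highest line mean was 4.63 ± 1.24 (SD, n = 3) in cpc, from arrays at 3.22, 5.52 and 5.15, and the lowest 3.44 ± 0.25 in try, from 3.34, 3.72 and 3.26. The 3 arrays of cpc thus spanned more than the line means. Among the 28 pairs of lines 0 passed in limma, and 0 had an unadjusted p under 0.05. In both lines labelled with cpc-1 ETC2 was 0.80 ± 0.34 (SE) above the other 6 and did not pass (adjusted p = 0.0692), although it did without array 1 of cpc (1.16, 0.00807), array 2 of the arrays labelled cpc ttg2 (1.06, 0.0265) or array 3 of gl3 (0.91, 0.027). It also passed with the replicate block (0.0467), with each array centred on its median (0.98, 0.03) and with array weights (1.09, 0.00532). In cpc alone, with the arrays labelled cpc ttg2 left out, it was 0.88 above the other 6 (0.299). TCL1 and TCL2 were not measured, and whether the ETC2 probes also read them was not tested.

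The lines labelled with a mutation in a factor of the activating complex were compared as a group with the 2 labelled with a mutation in a single-repeat inhibitor alone, the comparison closest to the feedback between both classes. TRY and ETC1 were lower in wer, myb23, gl3 and egl3 than in cpc and try, and CPC and ETC2 were not called. For TRY the means of the line means were 8.57 in the first 4 lines and 10.14 in cpc and try, so that TRY fell by 1.57 ± 0.30 (SE, 2.97-fold; limma, adjusted p = 0.00429). For ETC1 they were 7.05 and 8.30, and ETC1 fell by 1.25 ± 0.27 (2.38-fold, adjusted p = 0.0116). These 2 of 4 genes compare with 1.52% of all genes called lower. The lowest and the highest TRY line, wer (7.09) and try (10.71), both enter this comparison, and TRY in egl3, gl3 and myb23 was not told apart from that in cpc (cpc minus each line, 0.33 to 0.64, adjusted p from 0.551 to 0.704). Line by line, ETC1 in cpc was told apart from wer (adjusted p = 0.035) and egl3 (0.0459), but not from gl3 (0.224) or myb23 (0.257). ETC1 in try was told apart from none of the first 4 lines (0.111 to 0.811). CPC differed by 0.18 ± 0.19 (adjusted p = 0.671), with its low level in wer on the first side and in cpc on the second, and ETC2 by -0.27 ± 0.36 (0.737). The 2 calls held in each of the 24 fits that left out 1 array, with adjusted p up to 0.0184 for TRY and 0.0408 for ETC1, and without the arrays labelled cpc ttg2 (0.00571 and 0.0197).

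Of the 16 measured genes of the epidermal patterning list outside the family, 1 was higher, 1 was lower and 14 did not pass in the same comparison, with a median difference of -0.10, against -0.00 over all genes. The hair-promoting bHLH gene RHD6 was 1.33 ± 0.21 higher (9.91 against 8.58; limma, adjusted p = 0.000963), and TTG2, a WRKY gene of the non-hair cells, was lower, by -0.78 ± 0.19 (6.45 against 7.23, 0.0298). In wer against the other 7 lines, RHD6 was higher (1.27) and MYB23 (-1.26), GL2 (6.92 against 8.92) and TTG2 (-1.10) were lower, each with an adjusted p of at most 0.0235, and 12 did not pass. Of the lateral root cap markers, 3 of 12 were lower in wer, myb23, gl3 and egl3 (array means of 9.25 to 10.05, against 10.02 to 10.73 in cpc and try). Of the root hair markers 2 of 8 were higher (9.10 to 11.54, against 8.77 to 10.21). Of the stele markers 1 of 13 was higher (4.38 to 4.78, against 4.46 to 4.94), and no ground tissue marker was called (4.13 to 5.06, against 4.10 to 4.89). Their part in the TRY and ETC1 differences was not tested.

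Among the 112 tests of the 4 genes over the 28 pairs of lines, 20 passed (17.9%), against 6.65% of the tests on all genes. ETC1 gave 10 of them, TRY 6, CPC 4 and ETC2 0. Of all genes, 0.746% passed in as many pairs as ETC1 or more, 11.5% in as many as TRY and 24.4% in as many as CPC. Of the 20, 7 held in each of the 24 fits that left out 1 array, and 11 in fits of only the 6 arrays of the pair. Pairs of lines share arrays, so these counts are not independent.

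**Figure D3:**
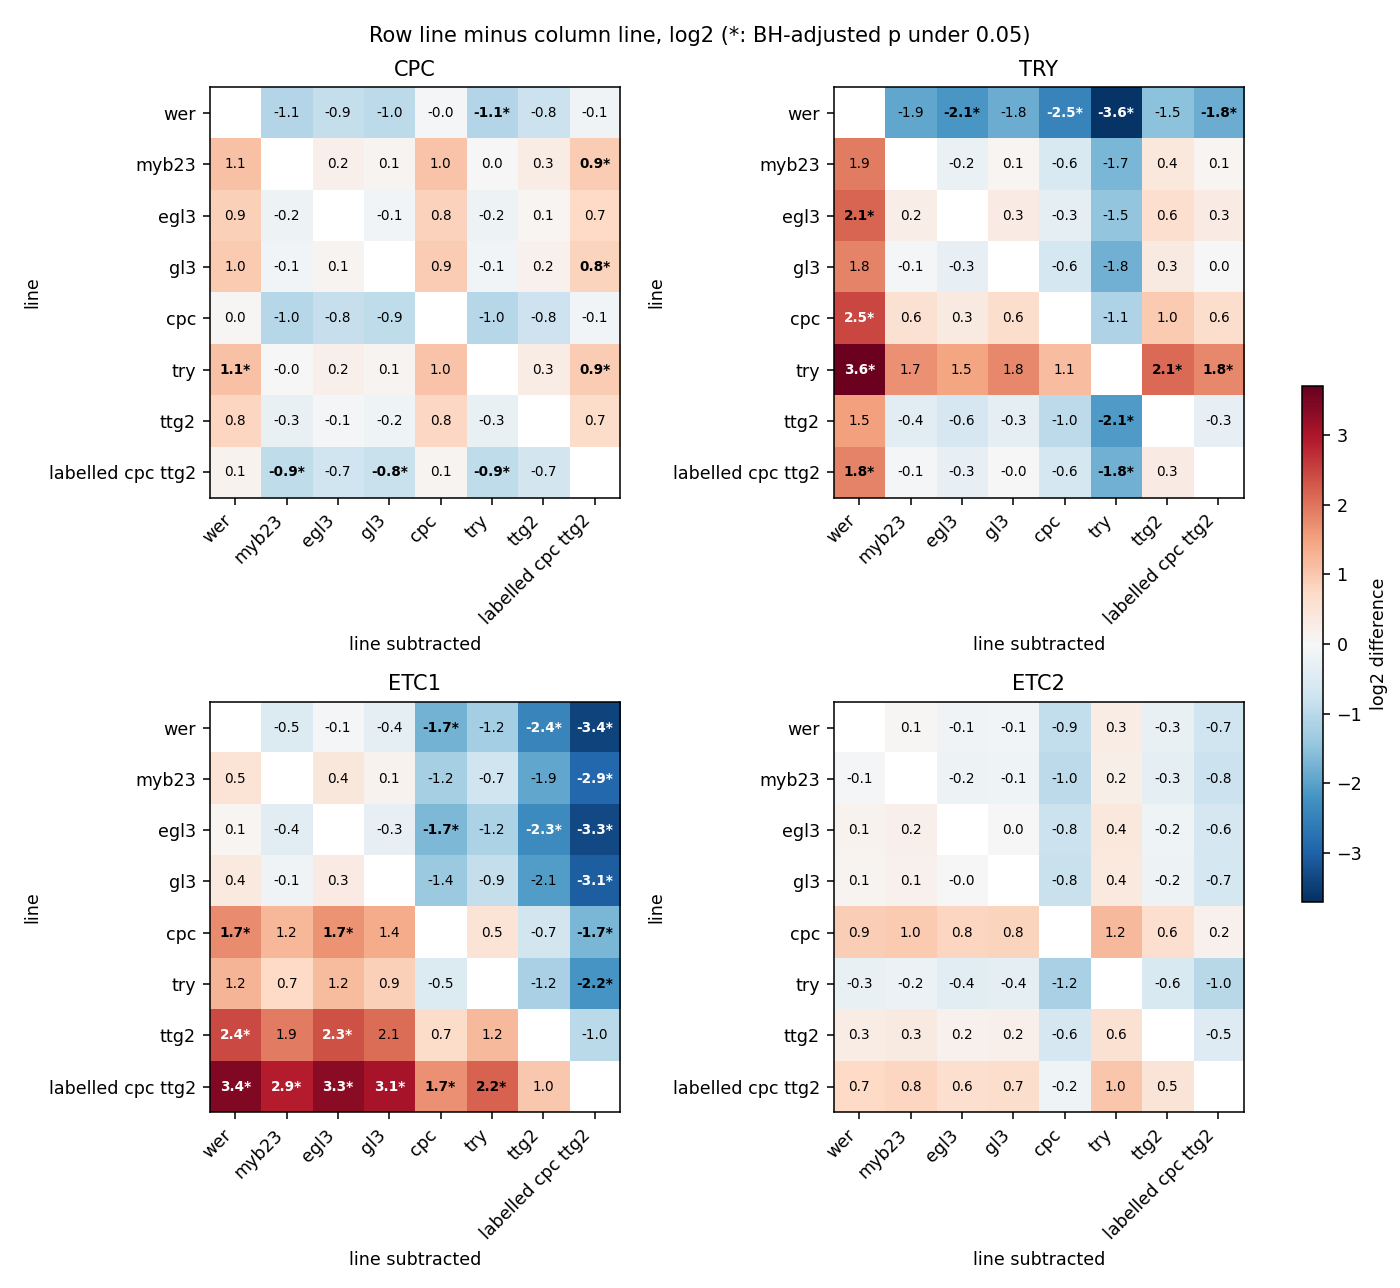
Differences in log2 RMA level between pairs of lines (row line minus column line) for CPC, TRY, ETC1 and ETC2, with colour and number giving the difference and a star marking a BH-adjusted p under 0.05. The 20 starred pairs are 10 for ETC1, 6 for TRY, 4 for CPC and 0 for ETC2, and the largest difference is 3.6 for TRY between try and wer.

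The 6 TRY pairs all involved wer or try. The largest was try against wer, 3.61 ± 0.48 (SE, 12.2-fold; limma, adjusted p = 0.000166), in a pair that called 5.1% of all genes, and it held in each of the 24 fits that left out 1 array. TRY was also higher in cpc than in wer (2.48 ± 0.48, adjusted p = 0.00708; 3.05% of all genes). The replicate numbers of cpc and wer pair their arrays, and with the number as a block in a fit of these 6 arrays the adjusted p was 0.0939 for TRY. TRY was higher in egl3 than in wer (2.14, adjusted p = 0.0284; 1.32% of all genes), and that call ended with the block in the 6 arrays (0.166) and without array 1 or 3 of egl3 or array 1 of wer (up to 0.2). In the arrays labelled cpc ttg2 it was 1.83 higher than in wer (adjusted p = 0.00932; 26% of all genes), a call that ended without array 1 of wer (1.17, 0.0594).

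The TRY level of the arrays labelled cpc ttg2 was lower than that of try (-1.78, adjusted p = 0.0088; 30.8% of all genes), which ended without array 2 of try (-1.54, 0.0532). TRY was higher in try than in ttg2 (2.10, adjusted p = 0.0402; 0.938% of all genes). This call ended in 10 of the 24 fits that left out 1 array (adjusted p up to 0.217 without array 2 of try), and passed with the replicate number as a block in the 6 arrays (0.00604), which the numbers pair. TRY in myb23 minus try was -1.71 (adjusted p = 0.101), which passed with the block in these 6 arrays (0.0121).

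ETC1 differed between the arrays labelled cpc ttg2 and 6 of the other 7 lines. The differences were 3.43 from wer (adjusted p = 4.92e-05; 26% of all genes), 3.34 from egl3 (4.02e-05; 34.9%), 3.05 from gl3 (0.000226; 25%), 2.91 from myb23 (0.00024; 26.7%) and 2.18 from try (0.00126; 30.8%). These 5 calls held in each fit that left out 1 array. The difference of cpc from the arrays labelled cpc ttg2 was -1.68 (adjusted p = 0.024; 9.1% of all genes), and it ended without array 1 or 2 of cpc or any 1 of the arrays labelled cpc ttg2 (up to 0.0837).

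Outside those arrays, ETC1 was 2.44 higher in ttg2 than in wer (adjusted p = 0.0159; 0.611% of all genes) and lower in egl3 than in ttg2 (-2.35, 0.0137; 0.653%). It was 1.75 higher in cpc than in wer (0.035; 3.05%) and 1.66 higher in cpc than in egl3 (0.0459; 2.83%). The call between ttg2 and wer ended without array 1 or 2 of ttg2 or array 1 or 3 of wer (up to 0.0843), and that between egl3 and ttg2 without array 2 of egl3 or array 1 or 2 of ttg2 (up to 0.0975). The call between cpc and wer ended without array 2 or 3 of cpc or array 1 or 3 of wer (up to 0.188), and with the replicate block in the 6 arrays (0.094). The call between cpc and egl3 ended in 16 of the 24 fits (up to 0.17) and without the arrays labelled cpc ttg2 (0.0634). With the block in the 6 arrays of try and ttg2, ETC1 was lower in try (-1.19, adjusted p = 0.0362, and 0.235 without the block).

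The 4 CPC pairs were smaller. The arrays labelled cpc ttg2 had less CPC than gl3 (-0.83, adjusted p = 0.0499; 25% of all genes), myb23 (-0.94, 0.0278; 26.7%) and try (-0.94, 0.0243; 30.8%). CPC was higher in try than in wer (1.07, 0.0447; 5.1%), and that call ended without the arrays labelled cpc ttg2 (0.0582). In the order given, these calls held in 7, 19, 20 and 11 of the 24 fits that left out 1 array, with adjusted p up to 0.175, 0.103, 0.0914 and 0.253, and none of the 4 passed with each array centred on its median (0.0713 to 0.171). CPC differences as large did not pass in other pairs. They were 1.07 for myb23 minus wer (limma, unadjusted p = 0.00211, adjusted 0.999), -1.04 for cpc minus myb23 (0.00264, 0.155) and -1.04 for cpc minus try (0.00265, 0.0782). The call against gl3 had a larger unadjusted p (0.0125), since the adjustment was made within each pair.

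Each gene's 8 line means, put in order, gave 7 neighbouring pairs. None of these 28 neighbouring differences passed (limma, adjusted p from 0.15 to 1). The arrays of 6 neighbouring pairs did not overlap. How often this occurs over all genes was not counted, and the order came from the same levels, so nothing is concluded from this count. The widest neighbouring gap was 1.52, between ttg2 and wer for TRY. For CPC the order, from low to high, was wer, cpc, labelled cpc ttg2, ttg2, egl3, gl3, try and myb23, with a gap between the third and the fourth line of 0.67 (adjusted p = 0.161). For TRY it was wer, ttg2, labelled cpc ttg2, gl3, myb23, egl3, cpc and try, with gaps at both ends. For ETC1 it was wer, egl3, gl3, myb23, try, cpc, ttg2 and labelled cpc ttg2.

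The family did not move as a unit. Over the 24 arrays Pearson's r was 0.38 between CPC and TRY, 0.23 between TRY and ETC1, -0.18 between CPC and ETC1, and 0.38 between ETC1 and ETC2. These are descriptions, since the 24 arrays share lines and array-wide normalisation. Over the 21 arrays without those labelled cpc ttg2, r was 0.40, 0.34, 0.06 and 0.28 for the same pairs of genes, so the sign of CPC and ETC1 turned. Within lines, with each line's mean removed, r was 0.10, 0.35, 0.26 and 0.21 for the same pairs of genes. Between CPC and ETC2 r was -0.33 over the 24 arrays, -0.27 over the 21 and -0.07 within lines. Between TRY and ETC2 it was 0.17, 0.14 and 0.46.

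Against 8 patterning genes picked after their values were seen, the strongest relation of line means was between ETC1 and the bHLH gene EGL3 (r = -0.96 over 8 lines, and -0.91 over 7 without the arrays labelled cpc ttg2). EGL3 stood lowest, at 5.19 ± 0.68 (SD, n = 3), where ETC1 was highest, in the arrays labelled cpc ttg2, and highest, at 7.59 ± 0.43, where ETC1 was lowest, in wer. Within lines r was -0.02, so the relation lay between lines and not between arrays of a line. ETC1 also ran against TTG1 (r = -0.88 over 8 lines, and -0.83 over 7) and the bHLH gene MYC1 (-0.84 and -0.64), and with GL2 (0.75 and 0.60) and MYB23 (0.69 and 0.29). Within lines r of ETC1 was 0.031 with TTG1, 0.0097 with MYC1, 0.011 with GL2 and 0.468 with MYB23. TRY ran with GL2 (0.67 over 8 lines, and 0.83 over 7) and against RHD6 (-0.71 and -0.74), with r of -0.125 and -0.22 within lines. With WER its r was 0.54 over 8 lines, 0.81 over 7 and 0.52 within lines. ETC2 ran against MYC1 (-0.888 over 8 lines, and -0.905 over 7), with r of -0.061 within lines. CPC followed MYB23 within lines (r = 0.74 over 24 arrays with line means removed) and had r of -0.01 over 8 line means, but 0.56 over 7 without the arrays labelled cpc ttg2.

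**Figure D4:**
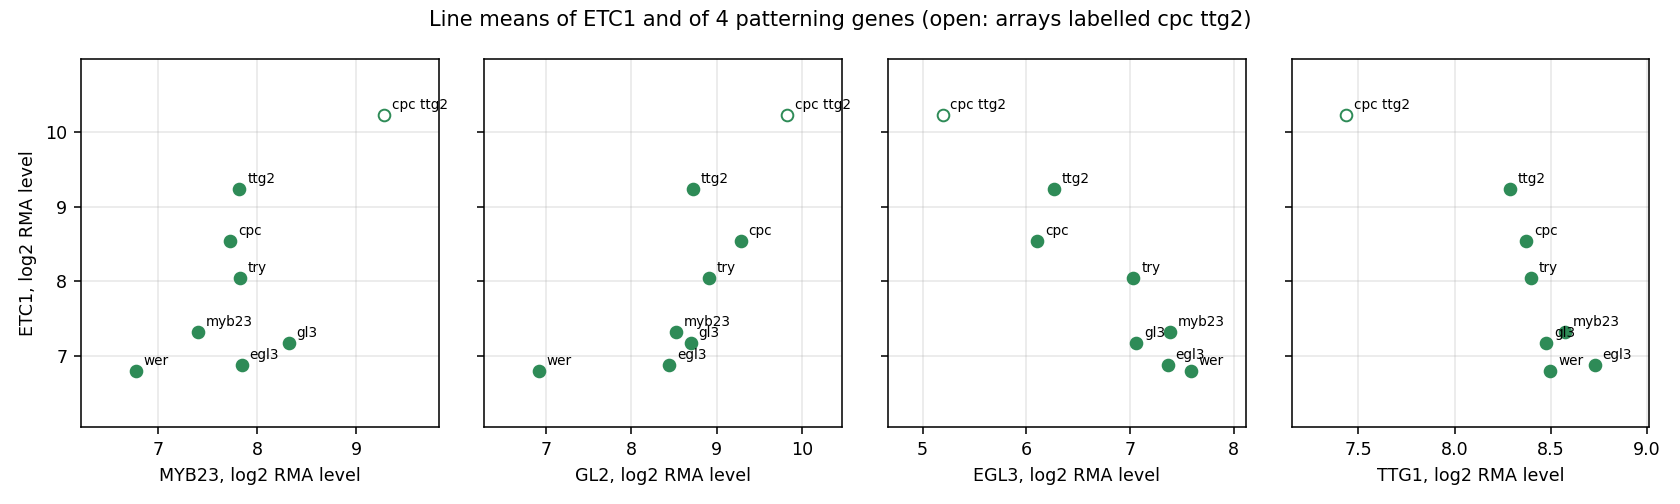
Line means of ETC1 (y axis, log2 RMA level) against those of MYB23, GL2, EGL3 and TTG1 (x axes, log2 RMA level), with 1 point per line and an open point for the arrays labelled cpc ttg2. ETC1 falls as EGL3 rises (r = -0.96 over 8 lines), and as TTG1 rises (-0.88).

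The 3 genes whose levels followed each member most closely over the 24 arrays were named by Pearson's r. For ETC1 they were AT3G09980 (r = 0.914), AT2G21180 (0.892) and AT5G67350 (0.882), all lowest in wer and highest in the arrays labelled cpc ttg2, as ETC1 is. Their r was 0.847, 0.804 and 0.81 without those arrays and 0.606 to 0.648 within lines. For TRY they were AT1G63300 (0.861), AT5G18460 (0.806) and COP8 (AT5G42970, 0.787), all lowest in wer and highest in try, with r of 0.826, 0.684 and 0.611 within lines. For CPC they were AT3G17740 (0.775), AT4G14301 (0.74) and AT1G68585 (0.738), all lowest in the arrays labelled cpc ttg2, with r of 0.446, 0.464 and 0.577 within lines. For ETC2 they were UMAMIT29 (AT4G01430, 0.929), AT2G04675 (0.916) and AT2G34315 (0.903), with line means from 2.99 to 5.83. Their r within lines was 0.933, 0.935 and 0.899, so this likeness also lay between arrays of the same line. The 99th percentile of r over all genes was 0.748 for ETC1, 0.579 for TRY, 0.612 for CPC and 0.81 for ETC2. With Spearman's rho 3 of these 12 genes stayed among the 3 closest, and without the arrays labelled cpc ttg2 5 did.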

How the data were processed

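The authors deposited 1 table of log2 values for 24 arrays, normalised with robust multi-array averaging per the submitters' processing notes. Biotin-labelled cRNA was made by the Affymetrix protocol, per the labels' protocols. The sources used here give neither the array type, nor the probe set definition, nor a software version. RMA evens out array distributions and compresses differences between dim genes. Of 21504 entries, 64 control entries were left out of the tests. Symbols came from a RefSeq gene table (TAIR10.1), in which 21222 of 21440 locus codes matched. No genome coordinates are given, since the build of the table is not stated, and sequences were not used here.

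Limma 3.58.1 (lmFit, eBayes) in R 4.3.3 fitted 1 mean per line to all arrays. Each comparison used 2-sided p-values with BH adjustment across all 21440 genes. The procedure was tested on simulated data. Spreads are SD over 3 arrays or SE of the fit, and depth has no meaning for arrays. The named genes were the family, called genes of the patterning list and, per member, the 3 with the highest Pearson's r. The members and lists were chosen with earlier results of these data known. Same-numbered arrays pair lines, by correlations of their deviations from line means over 0.1 for all 3 numbers, in 4 of 28 pairs of lines (cpc and wer, egl3 and wer, myb23 and try, try and ttg2). The alternatives were leaving out each array, a replicate block, array centring, quantile normalisation, a filter on dim genes, a trended robust spread, array weights, the fit without the arrays labelled cpc ttg2 and fits of 6 arrays. The block within 6 arrays was chosen after seeing the data.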

Additional observations from a re-analysis of the deposited data

How the results depend on the processing

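The F test called 3 of the 4 genes, and the comparison of wer, myb23, gl3 and egl3 with cpc and try called 2, in all 24 fits that left out 1 array. The 5 calls of a line against the other 7 became 4 to 7, the 20 pair calls 14 to 26, the CPC difference in the lines labelled with cpc-1 ran from -0.85 to -0.65 and the TRY difference in try from 1.70 to 2.24. In the fit without the arrays labelled cpc ttg2, the 5 calls became 2 (of 28 tests), with ETC1 in wer (adjusted p = 0.135) and egl3 (0.236) lost among the comparisons that remain. The 20 pair calls became 7 (of 84), with CPC between try and wer (0.0582) and ETC1 between cpc and egl3 (0.0634) lost among those that remain, and CPC in cpc missed the threshold at -0.77. TRY in try missed it at 1.70 without try replicate 2. Array weights, whose estimation stopped before convergence, gave 12 and 34 calls, and ETC1 in try, 0.02 in the main comparison, reversed to -0.45; the cause was not tested. With these weights ETC2 also passed the F test (adjusted p = 0.000345), as it did under no other alternative. The weighted F test called 15970 of 21440 genes, against 5786 in the main fit, so a pass was common in it. Of 1089 further values of single tests under the alternatives, 904 kept their direction and their side of the threshold, 129 no longer passed, 55 newly passed and 1 reversed. Fits of only the 6 arrays of a pair gave 13 calls, with fewer degrees of freedom. With the replicate block in all 24 arrays, the counts were 3, 4, 17 and 2 and the CPC and TRY differences -0.72 and 1.94; the numbers paired the arrays in 4 of 28 pairs of lines, and the values blocked within 6 arrays that changed a call are given with those pairs. The block in all 24 arrays ended ETC1 in egl3 (adjusted p = 0.0508), ETC1 between cpc and egl3 (0.0525), CPC between the arrays labelled cpc ttg2 and gl3 (0.0571) and CPC between try and wer (0.0522), and ETC2 in the lines labelled with cpc-1 newly passed (0.0467). Of the 12 genes nearest to the members, 3 stayed with Spearman's rho and 5 without the arrays labelled cpc ttg2. Centring each array on its median moved the median difference of all genes to 0.33 in the arrays labelled cpc ttg2 (0.07 before), -0.15 in egl3 (-0.02) and 0.20 in both lines labelled with cpc-1 (0.03). The share of higher genes among those called became 69.4% (43.9% before) in the arrays labelled cpc ttg2, 32.2% (51.8%) in egl3, 66.4% (42%) in both lines labelled with cpc-1 and 54.5% (43.9%) in wer. The number of arrays and the unknown background limit what can be said of ETC2.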
